A study of Mus musculus with 11 samples.

Results

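The nuclear genes for subunits of the oxidative phosphorylation complexes were followed across mouse embryonic fibroblasts with 2, 1 or 0 intact copies of the β-actin gene Actb. The genes were chosen by a rule on symbols that uses none of their values, though earlier results of these data were known. It took symbols beginning with Nduf plus a, b, c, s or v and a number, with Uqcr, with Cox4 to Cox8 or with Atp5. Sdha, Sdhb, Sdhc, Sdhd and Cyc1 were added. Symbols ending in -ps or -rs were left out, which removed 8. The rule took 85 of 46469 symbols, of which 79 were among the 14948 genes with enough signal to test, at least 1 FPKM (fragments mapped to a gene, normalised for transcript length and library size) in at least 3 libraries. By complex they comprised 35 genes for complex I, 4 for II, 9 for III, 20 for IV (14 tested) and 15 for V, while Atp5s and Atp5sl share the name but code for no subunit. Ndufa4 and its paralogue Ndufa4l2 are counted with complex IV, where the Ndufa4 protein resides in spite of its name.

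Oxidative phosphorylation takes place at the inner mitochondrial membrane. Complex I (NADH dehydrogenase) and complex II (succinate dehydrogenase) pass electrons to ubiquinone, complex III (cytochrome bc1) passes them to cytochrome c, and complex IV (cytochrome c oxidase) passes them to oxygen. Complexes I, III and IV pump protons, and complex V (ATP synthase) uses their return to make ATP. Subunits come from nuclear and mitochondrial genes, with the exception of complex II, whose subunits are all nuclear-encoded.

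The groups were Actb+/+ (WT, n = 4), Actb+/- (Het, n = 4) and Actb-/- (KO, n = 3, numbered 1, 3 and 4), all BALB/c cells from embryos of 10.5 days, harvested at 70% confluence and sequenced as stranded poly(A) libraries. Another KO library was dropped by the submitters at quality control and was not analysed here. The labels do not say which replicates came from separate embryos or cultures, so the p-values measure the spread between these libraries only. Because these are bulk samples, fewer cells of one kind and less RNA per cell cannot be told apart. Actb itself averaged 1325 ± 199.6 (SD, n = 4) FPKM in WT, 837 ± 24.0 (SD, n = 4) in Het and 45.8 ± 1.27 (SD, n = 3) in KO, the order of the labels.

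The fibroblast label was read against 10 fibroblast markers, all of which were expressed above the filter, with Vim and Sparc at 500.9 FPKM or more in every library. Thy1 was low (0 to 2.45 FPKM), reaching 1 FPKM in KO libraries alone, and Pdgfra was between 0.16 and 4.62 FPKM, under 1 FPKM in every WT library. The summed level of the 10 markers was 2160 to 2601 FPKM in WT, 2859 to 3201 in Het and 4283 to 4843 in KO. Col1a2 averaged 6.86 FPKM in WT, 193 in Het and 11.5 in KO. Of 12 muscle markers 9 stayed under 1 FPKM in every library, with Myod1 and Myog at 0, though Tnnt2 averaged 1.30 FPKM in WT and 22.2 in KO; the 12 summed to 1.60 to 2.65 FPKM in WT, 2.42 to 4.35 in Het and 21.9 to 26.1 in KO. All 8 endothelial, 8 of 9 blood, 9 of 10 germ cell, 8 of 10 adipocyte and 6 of 8 epithelial markers also stayed under 1 FPKM throughout. The adipocyte markers, mostly Pparg, summed to 5.26 to 7.51 FPKM in WT, 4.31 to 6.65 in Het and 15.6 to 21.0 in KO, and the epithelial markers, mostly Krt18 and Krt14, to 3.02 to 7.63, 5.49 to 9.76 and 0.852 to 1.06. The part of these differences in the results was not tested. Relative to WT 1, depth ran from 61.6% (WT 3) to 124.8% (WT 4).

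Promoters and coding starts are shown because later results refer to them. Promoters are given as the 250 bases before the RefSeq start (GRCm38.p6, 5′ to 3′ on the gene's strand), of the subunit with the largest fall in KO (Ndufs3, chr2:90904722-90904971, minus strand), of a subunit that fell in both mutants (Sdha, chr13:74350241-74350490, minus strand) and of the subunit that went up in KO and down in Het (Ndufa4, chr6:11907451-11907700, minus strand). Capitals mark matches, on either strand, to 3 motifs of factors known for respiratory genes: GCATGCGC for NRF1, CCGGAAG for ETS factors such as GABP, and AAGATGGCG for YY1.
Ndufs3: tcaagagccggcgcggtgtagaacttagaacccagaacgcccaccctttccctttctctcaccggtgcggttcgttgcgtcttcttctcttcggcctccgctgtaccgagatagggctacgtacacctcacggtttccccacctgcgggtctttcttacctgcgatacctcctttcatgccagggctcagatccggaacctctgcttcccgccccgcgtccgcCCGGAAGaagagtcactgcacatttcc
Sdha: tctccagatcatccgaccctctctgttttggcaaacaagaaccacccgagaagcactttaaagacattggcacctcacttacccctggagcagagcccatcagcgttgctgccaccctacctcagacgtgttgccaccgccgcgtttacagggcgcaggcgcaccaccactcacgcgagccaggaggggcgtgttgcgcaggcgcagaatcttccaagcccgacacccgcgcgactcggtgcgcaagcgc
Ndufa4: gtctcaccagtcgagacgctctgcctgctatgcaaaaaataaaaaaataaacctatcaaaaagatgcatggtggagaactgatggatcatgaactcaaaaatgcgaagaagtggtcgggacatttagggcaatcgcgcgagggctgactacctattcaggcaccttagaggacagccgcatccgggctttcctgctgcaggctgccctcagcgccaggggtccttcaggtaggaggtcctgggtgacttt
Ndufs3 holds 1 match, to the ETS motif, and no match was found in the bases shown for Sdha or Ndufa4. Among the 66 of 85 genes with a RefSeq promoter in the table, 15.2% held the NRF1 motif within 300 bases around the start (50 of them after it), against 2.80% of all 27025 promoters. The ETS motif was in 22.7% against 9.12%, and the YY1 motif in 9.09% against 1.49%. Of the 15 genes with a promoter that fell in KO, 0 held the NRF1 motif, 4 the ETS motif and 1 the YY1 motif; among the 18 that fell in Het the numbers were 4, 4 and 2. These are letter matches and no test was made of them.

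Also shown are the first 150 coding bases (GENCODE M21 transcripts on GRCm38, 5′ to 3′), with G and C in capitals, of a pair of subunits among those whose libraries disagreed most (pooled within-group SD 0.66 on the log2 scale for Uqcr11 and 0.74 for Ndufs7) and a pair of smaller spread (0.13 for Uqcrb and 0.09 for Ndufs4). Across the members, base composition goes with the spread, as described further on. It shows less in the Ndufs4 bases printed. They hold 56.7% G and C, against 42.7% in Uqcrb, 64% in Uqcr11 and 66% in Ndufs7.
Uqcr11: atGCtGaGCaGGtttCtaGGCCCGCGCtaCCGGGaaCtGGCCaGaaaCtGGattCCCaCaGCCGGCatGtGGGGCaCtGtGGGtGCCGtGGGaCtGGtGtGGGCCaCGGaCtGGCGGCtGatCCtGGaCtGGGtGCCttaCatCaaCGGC
Ndufs7: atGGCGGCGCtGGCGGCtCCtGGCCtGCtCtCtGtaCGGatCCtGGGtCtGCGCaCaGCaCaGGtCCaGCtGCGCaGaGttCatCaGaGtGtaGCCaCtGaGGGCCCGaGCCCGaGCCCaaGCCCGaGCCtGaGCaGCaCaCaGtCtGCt
Uqcrb: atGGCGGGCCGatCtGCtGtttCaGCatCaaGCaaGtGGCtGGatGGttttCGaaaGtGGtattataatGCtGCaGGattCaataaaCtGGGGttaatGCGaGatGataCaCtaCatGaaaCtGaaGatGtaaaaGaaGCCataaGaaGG
Ndufs4: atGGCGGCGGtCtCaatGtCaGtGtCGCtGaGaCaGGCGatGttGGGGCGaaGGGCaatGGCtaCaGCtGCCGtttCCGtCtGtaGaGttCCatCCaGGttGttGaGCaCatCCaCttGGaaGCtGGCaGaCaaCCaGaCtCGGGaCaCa
The complete coding sequences hold 60.7% G and C in Uqcr11 (locus at chromosome 10, 80402997 to 80406821), 61.6% in Ndufs7 (chromosome 10, 80249121 to 80256793), 42.9% in Uqcrb (chromosome 13, 66900621 to 66905350) and 46.3% in Ndufs4 (chromosome 13, 114287795 to 114388094).

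Across the 79 tested genes, 4 rose and 21 fell in KO against WT by limma at a Benjamini-Hochberg adjusted p under 0.05, and the other 54 did not pass. Over all genes tested, 47.1% were called in this comparison, 23.3% higher and 23.8% lower. Counts at an unadjusted p under 0.05, given further on, have no such share beside them. The members' shares were 5.06% higher and 26.6% lower, so the share that fell was close to that of all genes and the share that rose was below it. Their median log2 difference was -0.07, beside 0.01 for all genes; it was -0.11 without WT 1, -0.05 without WT 4, -0.12 after the GC correction described further on and -0.17 without scaling. Groups did not overlap, in the lower direction, for 22 members (23.6% of all genes) and, in the higher direction, for 6 (22.8%). Without scaling between libraries, which moves the median of all genes from 0.01 to -0.08, the count became 2 higher and 34 lower (2748 and 4653 of all genes, against 3481 and 3561 with scaling). Leaving out WT 4 gave 7 higher and 23 lower (4004 and 3920 of all genes).

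In Het against WT, 8 of the 79 rose and 22 fell, where 43.8% of all genes were called, 21.7% higher and 22.1% lower. The median of the members was 0.00 and that of all genes 0.01. The number that rose rested on single libraries: it was 16 without WT 4, 3 without Het 4, 4 without Het 1 and 5 without Het 2, WT 1 or WT 3. Over all genes, 3648 rose and 3662 fell without WT 4, and 3178 and 3206 without WT 1, against 3243 and 3303 with all libraries. For the other libraries left out, the numbers over all genes are not given. Groups did not overlap for 5 members in the higher direction (19.4% of all genes) and 18 in the lower (20%). Both comparisons use the same WT libraries, so their values are set side by side and the sharing of calls is given as a plain count. Of the 21 genes that fell in KO, 11 also fell in Het (Atp5b, Atp5f1, Cox5a, Cyc1, Ndufs3, Ndufs4, Ndufv2, Sdha, Uqcrb, Uqcrfs1 and Uqcrh), 8 did not pass in Het and 2 (Atp5o and Sdhc) rose there. Of the 4 that rose in KO, Cox7a2l rose in Het as well, Ndufa4 fell there, and Cox6c and Ndufb4 did not pass.

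**Figure D1:**
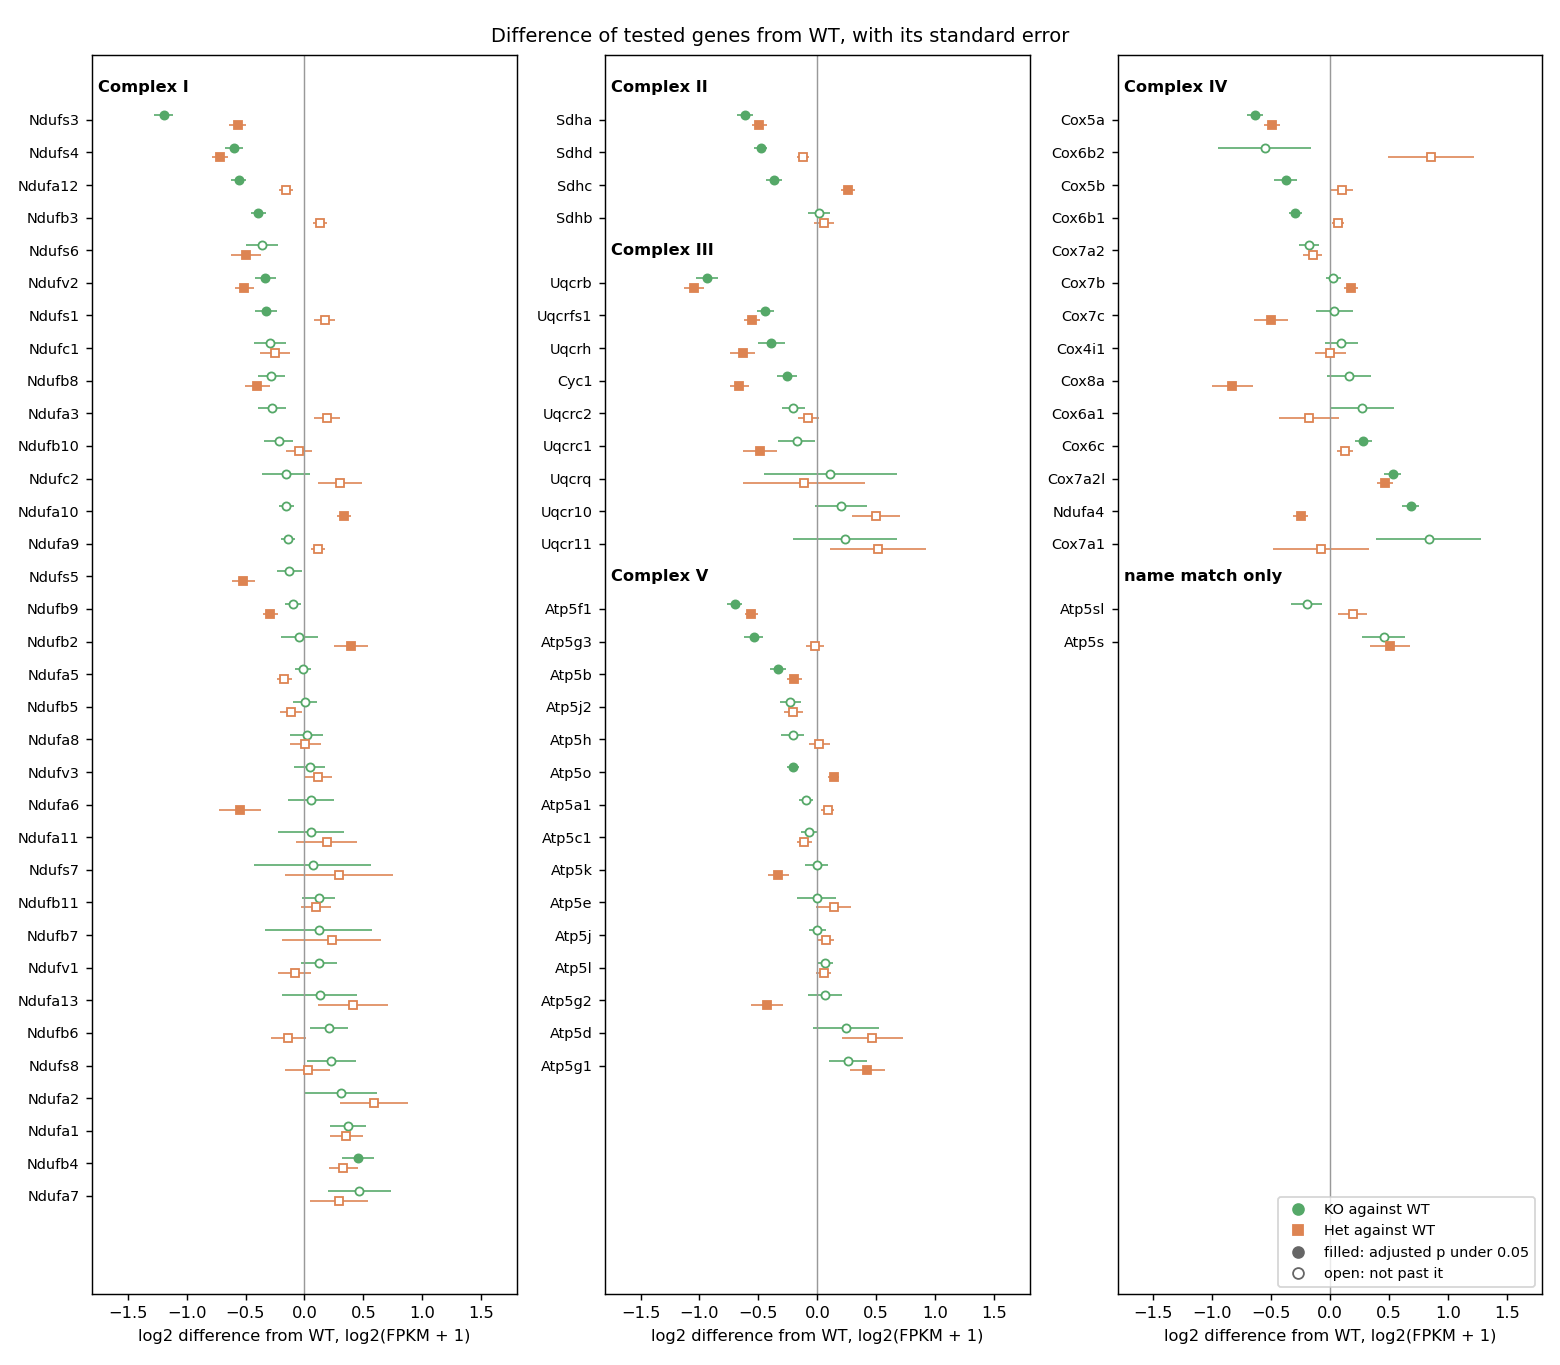
Log2 difference from WT (x axis, on the log2(FPKM + 1) scale) of 78 of the 79 tested genes, by complex, for KO (green circles) and Het (orange squares), with bars of 1 standard error; filled symbols passed an adjusted p of 0.05. Ndufs3 and Uqcrb lie farthest left among filled symbols, and Ndufa4 and Cox7a2l are the filled circles farthest right.

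Levels were also summed over the members of each complex. FPKM is scaled by transcript length, so levels may be added and compared between genes. No test was made of these sums, and groups are described by whether their libraries overlap. Complex II summed to 469, 458, 484 and 457 FPKM in WT 1 to 4, 441, 441, 429 and 456 in Het 1 to 4 and 348, 367 and 361 in KO 1, 3 and 4. KO lay below every other library, also under the other scalings tried, and its mean was 76.8% of the WT mean. Het 4 was under the lowest WT library by only 0.903 FPKM, and WT and Het overlapped without scaling, with upper quartile scaling and with the GC correction. Complex V summed to 4285, 4269, 4441 and 4372 FPKM in WT, 4132, 4014, 3949 and 4228 in Het and 3794, 3700.4 and 3845 in KO. KO was again lowest, also under the other scalings, with a mean 87.1% of the WT mean. Het lay between KO and WT, though WT and Het overlapped without scaling. Of the 15 genes 4 fell in KO, among them Atp5b, the most abundant, and 11 did not pass. The sum therefore does not speak for each gene.

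Complex III summed to 1315, 1368, 1354 and 1643 FPKM in WT, 1045, 987, 1037 and 1262 in Het and 1053, 1101 and 1306 in KO. Het and KO lay below all WT libraries, at 76.3% and 81.2% of the WT mean, and overlapped each other; without scaling Het overlapped WT. Complex IV had 2599.6, 2813, 2774 and 3066 FPKM in WT, 2542, 2504, 2511 and 2791 in Het and 2935, 2984 and 3274 in KO. KO was above every Het library (118% of the Het mean) but overlapped WT. Without scaling KO also overlapped Het, and with the GC correction it lay above WT as well. Without Ndufa4, the log2 ratio of complex IV in KO to WT was 0.0088 in place of 0.12, and that of KO to Het 0.11 in place of 0.24. Complex I averaged 3342 ± 401 (SD, n = 4) FPKM in WT, 3183 ± 227 (SD, n = 4) in Het and 3049 ± 288 (SD, n = 3) in KO, and its 3 groups overlapped.

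**Figure D2:**
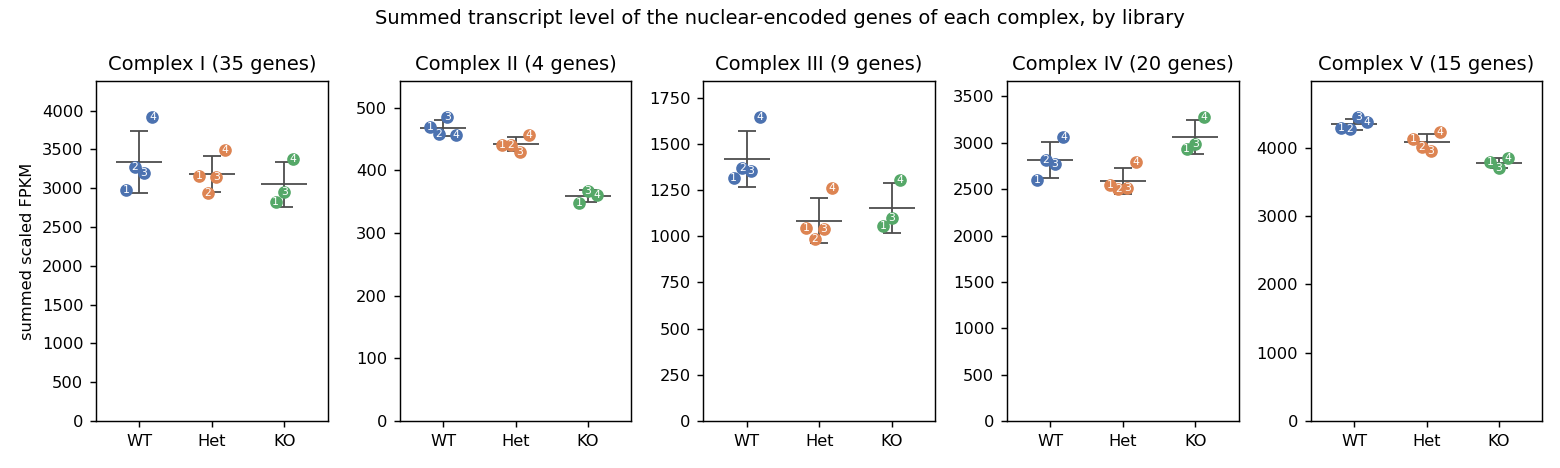
Summed scaled FPKM (y axis, from 0) of the nuclear-encoded genes of each complex in every library, by genotype; numbered points are replicates, and the bar and whiskers are the mean and SD. KO is lowest for complexes II and V, where Het lies between KO and WT (by under 1 FPKM from WT for complex II), complex III is low in Het and KO, and complex I overlaps throughout.

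Complex I has 7 nuclear-encoded core subunits, which carry the flavin and iron-sulphur centres, and many accessory subunits around them. In KO 1 of the 35 genes rose and 7 fell (2.86% and 20%, against 23.3% and 23.8% of all genes). In Het 2 rose and 8 fell (5.71% and 22.9%, against 21.7% and 22.1% of all genes). The core subunit Ndufs3 (chromosome 2, 90894636 to 90904721), part of the module that reduces ubiquinone, changed most: it measured 84.1, 67.5, 75.3 and 71.7 FPKM in WT 1 to 4, 48.3, 49.8, 48.2 and 54.0 in Het 1 to 4 and 33.2, 29.8 and 32.9 in KO 1, 3 and 4. No group overlapped another, KO lying lowest and Het between. Ndufs3 fell in KO (log2 difference -1.20 ± 0.08 (SE), adjusted p = 5.18e-07), in Het (log2 difference -0.56 ± 0.07 (SE), adjusted p = 0.00011) and in KO against Het (log2 difference -0.63 ± 0.08 (SE), adjusted p = 7.4e-05). The locus shares 853 bases with a predicted gene, LOC105244226, listed at a mean of 3.90 FPKM.

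Ndufs7 and Ndufs8, core subunits of the same module, are among the genes whose libraries disagreed within groups and did not pass (KO against WT 0.07 ± 0.49 and 0.23 ± 0.21, SE). Of the NADH-oxidising module, Ndufv2 fell in KO (-0.33, adjusted p = 0.0097) and in Het (-0.51, adjusted p = 0.000511). Ndufs1 measured 74.0, 63.1, 72.3 and 56.1 FPKM in WT 1 to 4, 77.1, 78.3, 73.0 and 69.7 in Het 1 to 4 and 56.0, 52.8 and 49.0 in KO 1, 3 and 4. KO was lowest, with the top KO library just under the bottom WT library, and Het overlapped WT. Ndufs1 fell in KO (-0.32, adjusted p = 0.0158), a call lost without KO 4 (adjusted p = 0.0685), and its difference in Het was 0.17, adjusted p = 0.137. Ndufv1, which binds the flavin, did not pass in either comparison (0.12 in KO and -0.08 in Het).

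Among 9 accessory subunits of the matrix arm, 2 fell in KO (Ndufs4 and Ndufa12) and 3 in Het (Ndufs4, Ndufa6 and Ndufs6). The shares were 22.2% and 33.3%, against 23.8% and 22.1% of all genes. Ndufs4, whose loss in humans causes Leigh syndrome, measured 69.1, 63.0, 66.8 and 62.7 FPKM in WT 1 to 4, 43.5, 38.8, 35.7 and 39.8 in Het 1 to 4 and 45.7, 40.1 and 43.1 in KO 1, 3 and 4. Het and KO overlapped each other and lay well below WT. It fell in both (KO -0.60, adjusted p = 6.7e-05, Het -0.72, adjusted p = 1.26e-05). Ndufa12 measured 207, 194, 214 and 205 FPKM in WT 1 to 4, 181, 173, 180.2 and 202 in Het 1 to 4 and 138, 133 and 145 in KO 1, 3 and 4. KO alone was apart from WT, and the difference passed in KO (-0.56, adjusted p = 3.78e-05) and not in Het (-0.16, adjusted p = 0.0537); KO was also lower than Het (-0.40, adjusted p = 0.000422).

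In the membrane arm, the called genes of KO and of Het are set side by side, without a test of their overlap. Over all genes 23.3% rose and 23.8% fell in KO, and 21.7% and 22.1% in Het. Of 9 in the part next to the matrix arm, 0 passed in KO by limma (1 higher and 2 lower at an unadjusted p under 0.05), whereas in Het Ndufa10 rose and Ndufs5 fell. Ndufa10 measured 82.6, 75.5, 87.0 and 79.9 FPKM in WT 1 to 4, 104, 109, 95.3 and 103 in Het 1 to 4 and 73.8, 74.8 and 69.9 in KO 1, 3 and 4. The Het libraries were highest and the KO libraries lowest, with no overlap. It rose in Het (0.33, adjusted p = 0.000942), its KO difference from WT was -0.15, adjusted p = 0.0662, and it was lower in KO than in Het (-0.49, adjusted p = 0.0001). Ndufs5 fell in Het (-0.52, adjusted p = 0.00151), with a KO difference of -0.13, adjusted p = 0.353.

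Of 10 subunits of the distal part, Ndufb4 rose and Ndufb3 fell in KO, while in Het Ndufb2 rose and Ndufb8 and Ndufb9 fell. The shares higher and lower were 10% and 10% in KO, against 23.3% and 23.8% of all genes. In Het they were 10% and 20%, against 21.7% and 22.1%. Ndufb3 measured 111, 116, 120.2 and 105 FPKM in WT 1 to 4, 119, 132, 118 and 129 in Het 1 to 4 and 82.2, 90.8 and 84.8 in KO 1, 3 and 4. KO was below every WT and Het library, which overlapped each other. It fell in KO against WT (-0.39, adjusted p = 0.000549) and against Het (-0.53, adjusted p = 7.22e-05). Ndufb4 rose in KO (0.46, adjusted p = 0.0165), a call lost without KO 4 (adjusted p = 0.0656) and with no scaling or only the 2 groups in the fit (adjusted p = 0.051 to 0.062). In Het Ndufb8 fell (-0.40, adjusted p = 0.00904), as did Ndufb9 (-0.29, adjusted p = 0.0034) and, in the matrix arm, Ndufs6 (-0.50, adjusted p = 0.00856). The call of Ndufb2 in Het (0.39, adjusted p = 0.0487) was lost without Het 1, Het 2, Het 4, KO 1, KO 3, KO 4, WT 1, WT 2 or WT 3 (adjusted p = 0.0575 to 0.127) and with no low-value filter or no mean-variance trend or no scaling or only the 2 groups in the fit (adjusted p = 0.0506 to 0.104). That of Ndufa6 in Het (-0.55, adjusted p = 0.0295) was lost without Het 1, Het 2 or Het 3 (adjusted p = 0.0531 to 0.0827) and with no low-value filter (adjusted p = 0.0692). The 27 complex I genes that did not pass in KO had differences from -0.36 (Ndufs6) to 0.47 (Ndufa7), and the 25 that did not pass in Het from -0.25 (Ndufc1) to 0.59 (Ndufa2). Over all libraries Ndufb8 was the most abundant member of the complex (mean 267 FPKM) and Ndufa11 the least (13.6 FPKM).

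Complex II also serves the tricarboxylic acid cycle. In KO 3 of its 4 genes fell and 0 rose, where 23.8% of all genes fell and 23.3% rose. In Het 1 fell and 1 rose, where 22.1% of all genes fell and 21.7% rose. At an unadjusted p under 0.05 by limma the KO counts were also 3 and 0. Sdha (chromosome 13, 74322255 to 74350240), the flavoprotein that oxidises succinate, measured 129.9, 123, 137 and 115 FPKM in WT 1 to 4, 87.6, 95.0, 89.6 and 85.0 in Het 1 to 4 and 86.3, 82.0 and 77.9 in KO 1, 3 and 4. Both mutants lay below WT and overlapped each other. Sdha fell in KO (log2 difference -0.61 ± 0.07 (SE), adjusted p = 3.29e-05) and in Het (log2 difference -0.49 ± 0.06 (SE), adjusted p = 0.000116). The iron-sulphur subunit Sdhb averaged 91.9 ± 8.99 (SD, n = 4) FPKM in WT, 95.6 ± 7.97 (SD, n = 4) in Het and 92.9 ± 8.72 (SD, n = 3) in KO, and did not pass in any comparison.

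The membrane anchors are Sdhc and Sdhd. Sdhc (chromosome 1, 171129157 to 171150603) measured 109.8, 98.0, 100.5 and 94.2 FPKM in WT 1 to 4, 127, 114, 117 and 124 in Het 1 to 4 and 75.7, 82.0 and 75.5 in KO 1, 3 and 4. Het was above WT and KO below it, with no overlap. It rose in Het (log2 difference 0.26 ± 0.06 (SE), adjusted p = 0.00531) and fell in KO (log2 difference -0.37 ± 0.07 (SE), adjusted p = 0.000849), and KO was lower than Het (log2 difference -0.62 ± 0.07 (SE), adjusted p = 2.04e-05). Sdhd measured 148, 144, 157 and 144 FPKM in WT 1 to 4, 138, 139, 128 and 139.8 in Het 1 to 4 and 101, 111 and 105 in KO 1, 3 and 4. KO was lowest, at 71.5% of WT, and the Het libraries lay just under WT. The fall passed in KO (-0.48, adjusted p = 4.33e-05) and not in Het (-0.12, adjusted p = 0.0872).

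Complex III showed falls in both mutants and no rise. In KO 4 of 9 genes fell by limma (44.4%, against 23.8% of all genes) and in Het 5 did (55.6%, against 22.1%). Over all genes 23.3% rose in KO and 21.7% in Het. At an unadjusted p under 0.05 by limma the rises were 0 in KO and 1 in Het. Uqcrb (chromosome 13, 66900621 to 66905350), known as a ubiquinone-binding protein of the complex, measured 293, 233, 256 and 225 FPKM in WT 1 to 4, 130.3, 129, 111 and 114 in Het 1 to 4 and 136, 128 and 129 in KO 1, 3 and 4. All Het and KO libraries lay far below the lowest WT library, and overlapped each other. The fall passed in KO (log2 difference -0.94 ± 0.09 (SE), adjusted p = 1.43e-05) and in Het (log2 difference -1.04 ± 0.09 (SE), adjusted p = 4.56e-06), and KO against Het gave 0.11 (adjusted p = 0.382). Uqcrfs1, the Rieske iron-sulphur protein, fell as well (KO -0.44, adjusted p = 0.000418, Het -0.55, adjusted p = 6.01e-05).

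Cyc1 (cytochrome c1) measured 175, 209, 209 and 223 FPKM in WT 1 to 4, 131, 118, 126 and 137 in Het 1 to 4 and 169, 159.9 and 181 in KO 1, 3 and 4. Het was lowest and apart from the rest, and KO overlapped WT at the lower end. It fell in Het (-0.66, adjusted p = 6.71e-05) and in KO (-0.26, adjusted p = 0.0309), and KO was higher than Het (0.41, adjusted p = 0.00269). The KO call of Cyc1 was lost without KO 1, KO 3, WT 2, WT 3 or WT 4 (adjusted p = 0.0549 to 0.124) and with no low-value filter or only the 2 groups in the fit (adjusted p = 0.0572 to 0.0675). Uqcrh, the hinge protein that helps cytochrome c bind, fell in Het (-0.63, adjusted p = 0.000745) and KO (-0.39, adjusted p = 0.017), but 493 bases of its locus are shared with LOC102637129, listed at a mean of 228 FPKM, so how reads were divided between them is uncertain. The KO call of Uqcrh was lost without KO 3 or KO 4 (adjusted p = 0.0585 to 0.0623). The core protein Uqcrc1 fell in Het (-0.49, adjusted p = 0.0198) with overlapping groups, a call lost without Het 1, Het 2 or WT 2 (adjusted p = 0.0517 to 0.0526). Uqcrc2, the other core protein, did not pass (-0.20 in KO and -0.08 in Het). The small subunits Uqcrq, Uqcr10 and Uqcr11 did not pass, with standard errors from 0.22 to 0.56 in KO against WT. The 5 genes that did not pass in KO ranged from -0.20 (Uqcrc2) to 0.24 (Uqcr11), and the 4 in Het from -0.11 (Uqcrq) to 0.52 (Uqcr11). Uqcrh was the most abundant of the complex (mean 262 FPKM) and Uqcrc2 the least (62.3 FPKM).

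Complex IV had changes in both directions: in KO 3 of 14 tested genes rose and 3 fell, and in Het 2 rose and 4 fell. The shares higher and lower were 21.4% and 21.4% in KO, against 23.3% and 23.8% of all genes. In Het they were 14.3% and 28.6%, against 21.7% and 22.1%. Ndufa4 (chromosome 6, 11900373 to 11907446) measured 427, 370.0, 409.6 and 359 FPKM in WT 1 to 4, 335, 334, 313 and 328 in Het 1 to 4 and 653, 627 and 602 in KO 1, 3 and 4. KO was far above WT and Het just below it, with no overlap anywhere. It rose in KO (log2 difference 0.68 ± 0.07 (SE), adjusted p = 1.65e-05), fell in Het (log2 difference -0.25 ± 0.06 (SE), adjusted p = 0.00893) and was higher in KO than in Het (log2 difference 0.93 ± 0.07 (SE), adjusted p = 1.71e-06). Cox5a (chromosome 9, 57521232 to 57532427), on the matrix side of the enzyme, measured 247, 213, 234 and 205 FPKM in WT 1 to 4, 156, 152, 165 and 162 in Het 1 to 4 and 149.8, 137 and 144 in KO 1, 3 and 4. Both mutants were below WT, KO slightly under Het. The transcript fell in KO (log2 difference -0.64 ± 0.07 (SE), adjusted p = 3.04e-05) and in Het (log2 difference -0.50 ± 0.07 (SE), adjusted p = 0.000137).

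Cox8a (chromosome 19, 7215158 to 7217616), a small membrane subunit, measured 160.1, 139, 150.2 and 231 FPKM in WT 1 to 4, 82.8, 84.4, 97.8 and 111 in Het 1 to 4 and 162, 169 and 236 in KO 1, 3 and 4. Het was apart below both WT and KO, which overlapped. It fell in Het (log2 difference -0.83 ± 0.17 (SE), adjusted p = 0.00269), was higher in KO than in Het (log2 difference 0.99 ± 0.19 (SE), adjusted p = 0.00134) and did not pass in KO against WT (0.16, adjusted p = 0.529). Cox7c likewise fell in Het (-0.50, adjusted p = 0.0166) and differed from WT by 0.03 in KO. Cox5b and Cox6b1 fell in KO (-0.38, adjusted p = 0.00986 and -0.29, adjusted p = 0.00155) and not in Het (0.10 and 0.07). Cox6c rose in KO (0.28, adjusted p = 0.00844), a call lost with no scaling (adjusted p = 0.0815). Cox7b rose in Het (0.18, adjusted p = 0.0272), a call lost without Het 1, Het 2, Het 4, WT 2, WT 3 or WT 4 (adjusted p = 0.0507 to 0.0774) and with only the 2 groups in the fit (adjusted p = 0.0551). The most abundant gene of the complex, Cox4i1, averaged 573 ± 110.3 (SD, n = 4) FPKM in WT, 566 ± 37.9 (SD, n = 4) in Het and 606 ± 66.0 (SD, n = 3) in KO, and did not pass. The 8 tested genes that did not pass in KO ranged from -0.56 (Cox6b2) to 0.83 (Cox7a1), both of very low level, and the 8 in Het from -0.18 (Cox6a1) to 0.85 (Cox6b2).

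Complex V had 4 falls and 0 rises among 15 genes in KO, and 4 falls and 2 rises in Het. The share that fell was 26.7% in each, close to the 23.8% (KO) and 22.1% (Het) of all genes. The share that rose was 0% in KO and 13.3% in Het, against 23.3% and 21.7% of all genes. At an unadjusted p under 0.05 limma gave 5 falls and 0 rises in KO. Atp5f1 (chromosome 3, 105942698 to 105960248), subunit b of the stalk that holds the catalytic head still, measured 299, 258, 294 and 265 FPKM in WT 1 to 4, 185, 192, 184 and 193 in Het 1 to 4 and 173, 170.1 and 169 in KO 1, 3 and 4. The groups were apart in the order WT, Het, KO. Atp5f1 fell in KO (log2 difference -0.70 ± 0.06 (SE), adjusted p = 4.79e-06) and in Het (log2 difference -0.56 ± 0.06 (SE), adjusted p = 1.91e-05), though 751 bases of the locus overlap Wdr77, at a mean of 39.1 FPKM. Atp5b (chromosome 10, 128083307 to 128090388), the catalytic β subunit and the most abundant of all members, measured 1195, 1098, 1212 and 1076 FPKM in WT 1 to 4, 1024, 1037, 968 and 969 in Het 1 to 4 and 963, 887 and 878 in KO 1, 3 and 4. Its groups were apart in that order too. Atp5b fell in KO (-0.33, adjusted p = 0.00241) and also in Het (-0.19, adjusted p = 0.0297). Its Het call was lost without Het 1, Het 3, Het 4, WT 1 or WT 3 (adjusted p = 0.0515 to 0.0872) and with no low-value filter or only the 2 groups in the fit or upper quartile scaling (adjusted p = 0.0543 to 0.0802). The α subunit Atp5a1 did not pass against WT (-0.10 in KO and 0.09 in Het).

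Atp5o, which joins the stalk to the head, measured 244, 261, 250.2 and 241 FPKM in WT 1 to 4, 267, 271, 276 and 284 in Het 1 to 4 and 209, 218 and 219 in KO 1, 3 and 4. KO was lowest and Het above all WT libraries. It fell in KO (-0.21, adjusted p = 0.00549) and rose in Het (0.14, adjusted p = 0.0308), the Het call being lost without Het 2, Het 3, Het 4, WT 1, WT 3 or WT 4 (adjusted p = 0.0539 to 0.0835) and with GC correction or only the 2 groups in the fit (adjusted p = 0.0601 to 0.0885). Of the membrane-embedded subunits Atp5j2, Atp5k and Atp5l, 0 passed in KO by limma (1 at an unadjusted p under 0.05) and Atp5k fell in Het (-0.33, adjusted p = 0.0102). The 11 genes of the complex that did not pass in KO ranged from -0.23 (Atp5j2) to 0.26 (Atp5g1), and the 9 in Het from -0.21 (Atp5j2) to 0.47 (Atp5d). Of the name matches that are no subunits, Atp5s rose in Het (0.51, adjusted p = 0.03), a call lost without Het 1, Het 2 or Het 4 (adjusted p = 0.0541 to 0.0723) and with no low-value filter or only the 2 groups in the fit (adjusted p = 0.0562 to 0.0681).

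**Figure D3:**
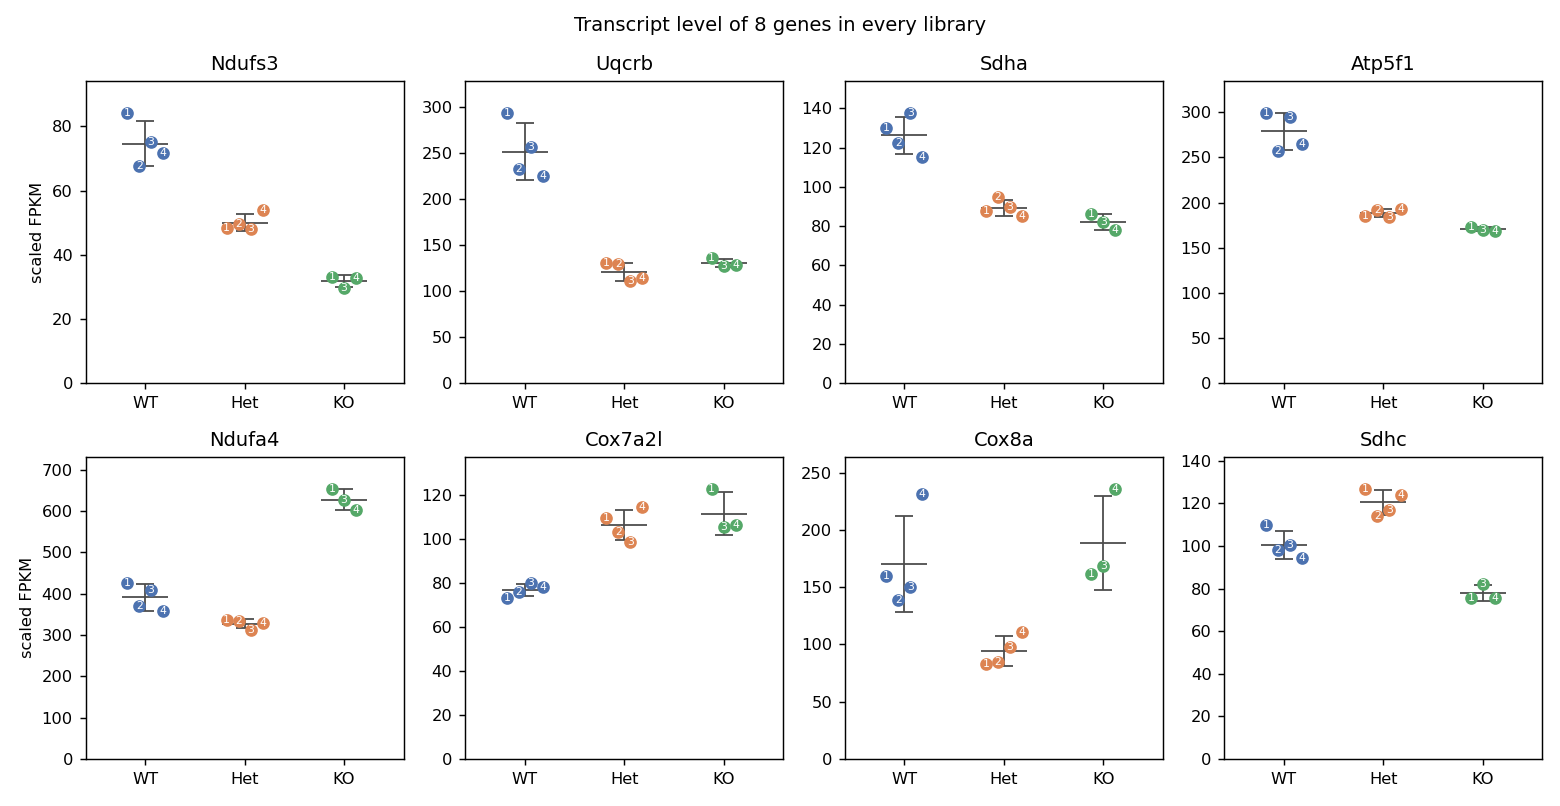
Scaled FPKM (y axis, from 0) of 8 genes in every library, by genotype; numbered points are replicates, the bar and whiskers are the mean and SD. Ndufs3 falls by steps, Uqcrb, Sdha and Atp5f1 are low in Het and KO, Ndufa4 is high in KO only, Cox7a2l is raised in both, Cox8a is low in Het only, and Sdhc is high in Het and low in KO.

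Several subunits exist as alternative genes, and the share of each within its family was read from the FPKM. The c-ring of ATP synthase, which rotates as protons pass, is built from identical mature proteins made by Atp5g1, Atp5g2 and Atp5g3. Atp5g3 measured 355, 359, 353 and 363 FPKM in WT 1 to 4, 382, 306, 343 and 386 in Het 1 to 4 and 241, 236 and 260.2 in KO 1, 3 and 4. KO was below all other libraries, and WT and Het overlapped. Atp5g3 fell in KO (log2 difference -0.54 ± 0.08 (SE), adjusted p = 0.000243) with a Het difference of -0.02. Atp5g2 fell in Het (-0.43, adjusted p = 0.0257) and Atp5g1 rose in Het (0.42, adjusted p = 0.0406), both with overlapping groups. The Atp5g2 call was lost without Het 1, Het 2, Het 3 or WT 2 (adjusted p = 0.0551 to 0.0622) and with no low-value filter (adjusted p = 0.0593). The Atp5g1 call was lost without Het 1, Het 2, Het 3, Het 4, KO 3, KO 4, WT 1 or WT 3 (adjusted p = 0.0515 to 0.102) and with no low-value filter or only the 2 groups in the fit (adjusted p = 0.0618 to 0.0895). The share of Atp5g3 in the 3 genes was 61.9, 53.2, 57.3 and 49.5% in WT 1 to 4, 58.3, 54.6, 56.6 and 57.7% in Het 1 to 4 and 46.3, 42.1 and 43.3% in KO 1, 3 and 4. The KO shares were lowest and did not overlap the rest. Atp5g2 made up 30.2% on average in WT, 23.3% in Het and 36.3% in KO, and Atp5g1 14.3%, 19.9% and 19.8%.

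Cox7a2l (chromosome 17, 83501917 to 83514333) codes for a relative of Cox7a2 described as linking complexes III and IV in supercomplexes. Neither the protein nor supercomplexes were measured here. It measured 73.1, 75.9, 79.8 and 78.0 FPKM in WT 1 to 4, 109, 103, 98.6 and 114 in Het 1 to 4 and 123, 105 and 106 in KO 1, 3 and 4. Both mutants were above every WT library and overlapped each other. It rose in KO (log2 difference 0.53 ± 0.07 (SE), adjusted p = 0.000115) and in Het (log2 difference 0.46 ± 0.07 (SE), adjusted p = 0.000217). Its share of the Cox7a family averaged 25.1% in WT, 33.9% in Het and 35.2% in KO, while Cox7a2 itself did not pass (-0.18 in KO and -0.15 in Het).

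**Figure D4:**
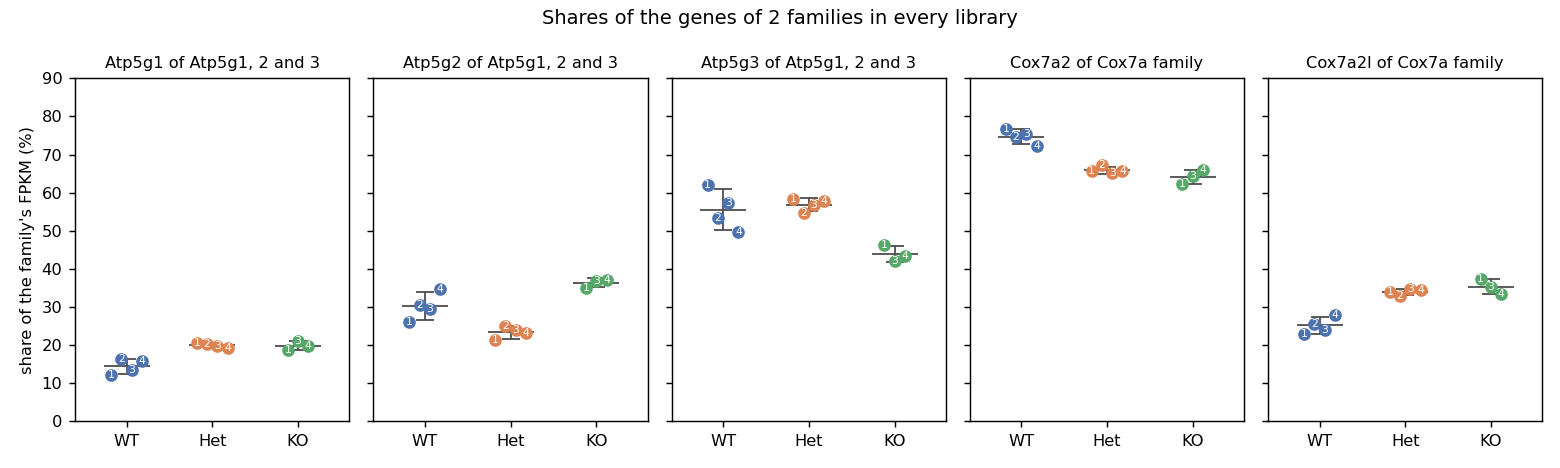
Share of each gene in the summed FPKM of its family (y axis, percent, from 0) in every library, for the 3 c-ring genes and for Cox7a2 and Cox7a2l; numbered points are replicates, the bar and whiskers are the mean and SD. The Atp5g3 share is lowest in KO, and the Cox7a2l share is above WT in every Het and KO library.

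Isoforms known from striated muscle, testis or hypoxic cells were nearly absent. The 6 genes that were not tested, Cox4i2, Cox6a2, Cox7b2, Cox8b, Cox8c and Ndufa4l2, reached at most 0.681 FPKM in a library, and Cox8b and Cox8c were listed at 0 in all 11. Depth in reads is not given, so no limit for the genes listed at 0 is stated. The muscle isoform Cox7a1 lay between 0 and 2.46 FPKM and the testis isoform Cox6b2 between 0 and 4.17. Every KO library had a listed Cox6b2 level of 0, and the gene passed the filter through 1 WT and 3 Het libraries only, so that its place among the genes lower in KO than in Het follows from how it was admitted. The ubiquitous gene supplied from 98.5% to 100% of the Cox4, Cox6a, Cox6b, Cox7b, Cox8 and Ndufa4 families in each library.

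KO and Het were also compared directly. In KO 9 of the 79 genes were higher than in Het and 18 lower, where 44.2% of all genes were called, 22% higher and 22.2% lower, and the median difference was -0.06 against 0.01. Without KO 4 the number higher was 4. By complex, 3 were higher and 9 lower in I, 0 and 2 in II, 1 and 0 in III, 3 and 3 in IV, and 2 and 3 in V. At an unadjusted p under 0.05 limma also gave 0 higher in II and 0 lower in III. Ndufa3 (-0.46, adjusted p = 0.00882) and Ndufa9 (-0.26, adjusted p = 0.00584) were lower in KO than in Het, and Atp5k (0.33, adjusted p = 0.0162) and Ndufs5 (0.39, adjusted p = 0.0113) higher. The call of Atp5k was lost without KO 4 (adjusted p = 0.0612) and with no scaling (adjusted p = 0.109) and that of Ndufs5 lost with no scaling (adjusted p = 0.051). Groups did not overlap for 14 members higher in KO (27.2% of all genes) and 22 lower (26.7%).

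Het was also set against the midpoint of WT and KO. Against it, 17 members were higher and 21 lower, where 44% of all genes departed from it, 21.3% higher and 22.8% lower. Without Het 1 or Het 4, 11 were higher. The largest departures with a mean of at least 5 FPKM were below it, for Cox8a (-0.91, adjusted p = 0.000712), Ndufa4 (-0.59, adjusted p = 1.42e-05) and Uqcrb (-0.58, adjusted p = 0.00015). Above it were Sdhc (0.44, adjusted p = 7.31e-05) and Ndufb2 (0.41, adjusted p = 0.0237), the latter call lost without Het 1, Het 4 or KO 3 (adjusted p = 0.0532 to 0.0788) and with no low-value filter (adjusted p = 0.0556). For Ndufs3 the departure was 0.03 (adjusted p = 0.707) and for Atp5b -0.03 (adjusted p = 0.707).

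The replicates agreed far better for some members than for others. Of 76 members with a mean of at least 5 FPKM, 25 had a pooled within-group SD under 0.1 on the log2 scale, and 21 of these (84%) were called in at least 1 of the 3 comparisons between groups. Of all 79 members 45 were called in at least 1 (57.0%, against 67.8% of all genes tested). In contrast 13 had an SD over 0.3 (Uqcrq, Ndufs7, Ndufb7, Uqcr11, Ndufa13, Ndufa2, Atp5d, Ndufa11, Cox6a1, Ndufa7, Uqcr10, Ndufs8 and Ndufc2) and 0 of them were called by limma. Over all genes with a mean of at least 5 FPKM, 85.0% of 2859 with an SD under 0.1 and 27.2% of 1054 with an SD over 0.3 were called in at least 1 comparison. At an unadjusted p under 0.05 the 13 had 0 in KO against WT, 1 in Het against WT and 1 in KO against Het. Uqcr11, whose coding start is printed above, measured 53.6, 116, 74.7 and 227 FPKM in WT 1 to 4, 125, 106, 155 and 218 in Het 1 to 4 and 83.7, 118 and 173 in KO 1, 3 and 4. The WT libraries alone spanned the whole range of the Het and KO libraries. Ndufs7 measured 17.3, 43.6, 25.0 and 94.8 FPKM in WT 1 to 4, 39.8, 31.3, 48.9 and 68.1 in Het 1 to 4 and 28.0, 35.3 and 58.1 in KO 1, 3 and 4. In both genes WT 1 was lowest and WT 4 highest of WT, and Het 4 and KO 4 were the highest of their groups. For such genes the comparisons had little precision: the SE of KO against WT was 0.49 for Ndufs7, 0.44 for Uqcr11 and 0.56 for Uqcrq.

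The spread went with base composition. Across the 76 genes, Spearman's rho of the SD with transcript GC content was 0.45, and with transcript length -0.34; these describe genes that share the same 11 libraries and depths. The log2 ratio of WT 4 to WT 1 had a rho of 0.64 with GC. The same gradient ran through the whole data set. In the 2755 most GC-rich of the tested genes (55.7% or more), the median deviation from each gene's mean was -0.41 in WT 1, 0.03 in WT 2, -0.26 in WT 3 and 0.32 in WT 4. It lay between -0.12 and 0.12 in the Het libraries and between -0.06 and 0.25 in KO, and the group means were -0.08, 0.01 and 0.09. The 15 members among them had medians of -0.44 in WT 1 and 0.54 in WT 4. The part of library preparation or of the cells in this gradient was not tested.

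With the GC trend of each library removed, an alternative added after the data had been seen, calls increased among the members and among all genes: 5 members rose and 27 fell in KO, 13 rose and 26 fell in Het, and 14 were higher and 24 lower in KO than in Het. Of the 13774 genes in that fit, 4010 were higher and 4021 lower in KO against WT, 3854 and 3913 in Het against WT, and 3934 and 3888 in KO against Het. Ndufs3 (-1.26 in KO and -0.59 in Het), Uqcrb (-0.86 and -1.02), Ndufa4 (0.76 and -0.21) and Cox8a in Het (-0.93) stayed past the threshold.

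**Figure D5:**
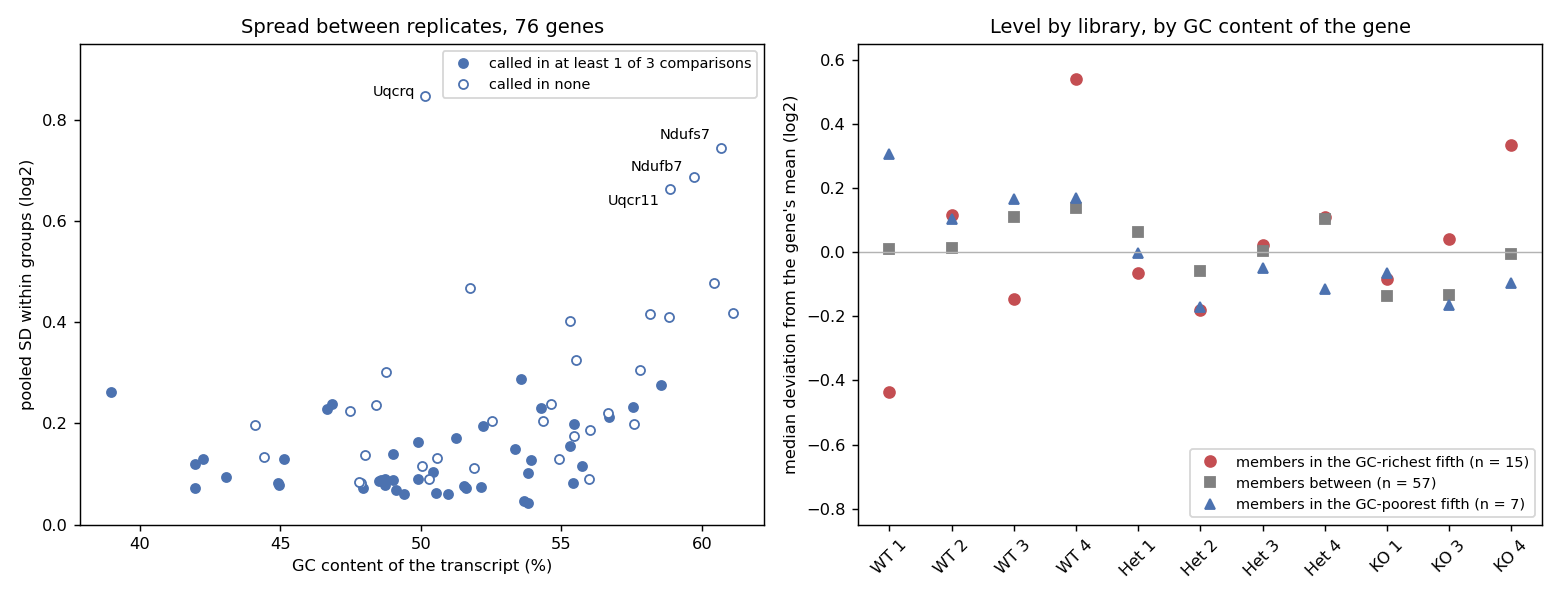
Left, pooled within-group SD (y axis, log2) against transcript GC content (x axis, percent) of 76 genes, filled where called in at least 1 of 3 comparisons; right, median deviation from each gene's mean (y axis, log2) in every library for tested members in the GC-rich class, the GC-poor class and between. The genes of largest SD are open symbols, 3 of the 4 that are named lie above 58% GC, and the GC-rich members run from -0.44 in WT 1 to 0.54 in WT 4.

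Genes that act with these subunits were read from lists. The counts of every list stand beside the shares of all genes tested. These were 23.3% higher and 23.8% lower in KO against WT, and 21.7% and 22.1% in Het against WT. The shares belong to the scaled fit of all libraries and moved with the setting. In KO the numbers of all genes were 2748 higher and 4653 lower without scaling (median -0.08). They were 4010 and 4021 of 13774 with GC correction and 4004 and 3920 without WT 4. In Het they were 3854 and 3913 with GC correction, 3188 and 3175 with upper quartile scaling and 3648 and 3662 without WT 4. For other settings the numbers over all genes are not given. The 13 protein-coding genes of mitochondrial DNA, which supply the membrane cores of complexes I, III, IV and V, had 3 rises and 0 falls in KO and 0 of either in Het by limma, with medians of 0.19 and 0.07. At an unadjusted p under 0.05, 0 of the 13 passed in Het. These counts moved with WT 1: without it 7 rose in KO (median 0.27) and 2 in Het (0.15), while without WT 4 the medians were 0.10 and -0.0095. With no low-value filter 1 rose in KO. ND5 measured 1261, 951, 1065 and 866 FPKM in WT 1 to 4, 970.4, 1062, 969 and 928 in Het 1 to 4 and 1411, 1292 and 1297 in KO 1, 3 and 4. KO lay above all other libraries. It rose in KO (0.38, adjusted p = 0.0192), as did ND4 (0.45, adjusted p = 0.0113) and ND6 (0.39, adjusted p = 0.00963), all subunits of complex I. The ND5 call was lost without KO 1 or WT 2 (adjusted p = 0.052 to 0.0681) and with no low-value filter or only the 2 groups in the fit (adjusted p = 0.0528 to 0.0575), and the ND4 call lost with no low-value filter (adjusted p = 0.0505). Across WT the summed level of the 13 genes went from 49730 to 71763 FPKM, a span that contains every Het and KO library. Among the WT libraries WT 1 was highest and WT 4 lowest for ND5, the reverse of the GC-rich nuclear members.

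Mitochondrial ribosomal proteins, which serve the translation of those 13 genes, had 2 rises and 27 falls among 77 in KO, and 10 and 24 in Het. Their median was -0.16 in KO, beside 0.01 for all genes, and -0.25 without scaling, beside -0.08 for all genes. In KO the numbers higher and lower became 5 and 31 with GC correction, 1 and 39 with no scaling, 4 and 33 with a replicate block and 4 and 29 without WT 4; in Het they became 8 and 15 with no low-value filter, 6 and 18 without Het 1, 5 and 20 without Het 4 and 6 and 21 without WT 2. In KO Mrpl4 (-0.86, adjusted p = 0.00672), Mrps16 (-0.74, adjusted p = 5.52e-06) and Mrps34 (-0.74, adjusted p = 0.0107) fell most, and in Het Mrps22 (-0.74, adjusted p = 2.89e-06) and Mrpl36 (-0.73, adjusted p = 0.000612) fell most.

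Assembly factors were mixed. For complex I 1 of 14 rose and 6 fell in KO (median -0.10), led by Ndufaf1 (-0.79, adjusted p = 6.26e-05) and Ndufaf5 (-0.74, adjusted p = 0.00402), against 3 and 1 in Het. The KO numbers higher and lower became 5 and 5 with GC correction, 0 and 4 with no low-value filter or without KO 1, 0 and 6 with no scaling, 1 and 3 with only the 2 groups in the fit, 0 and 2 without WT 3 and 0 and 5 without WT 4; those in Het became 3 and 4 with GC correction, 2 and 2 with only the 2 groups in the fit or without KO 1, WT 2 or WT 4 and 3 and 2 with a replicate block or without KO 4 or WT 1. For complexes II and III 2 of 8 fell in KO (median -0.08), Uqcc1 (-0.79, adjusted p = 3.43e-05) and Ttc19 (-0.42, adjusted p = 0.0221), and Sdhaf2 fell in Het (-0.70, adjusted p = 5.41e-05). The Ttc19 call was lost without KO 3, KO 4 or WT 3 (adjusted p = 0.0573 to 0.0774). For complex IV 5 of 22 rose and 4 fell in KO (median -0.07), among them Pet100 (0.66, adjusted p = 0.000282) and Cox18 (0.64, adjusted p = 0.000259) upwards and Higd1a (-0.48, adjusted p = 0.000698) downwards. These numbers became 5 and 2 with no low-value filter or only the 2 groups in the fit or without Het 2, KO 3 or WT 2, 5 and 10 with no scaling, 6 and 2 without KO 1 and 8 and 4 without WT 4, and the median without scaling was -0.16. Of the 3 ATP synthase factors, Atpaf1 and Atpaf2 fell in KO (-0.33, adjusted p = 0.0144 and -0.38, adjusted p = 0.0135) and in Het (-0.58, adjusted p = 0.000325 and -0.45, adjusted p = 0.00377). Their KO calls were lost without KO 4 (adjusted p = 0.0578) for Atpaf1 and lost without KO 4 (adjusted p = 0.0617) for Atpaf2. Of 5 further genes outside the name rule, such as the subunit gene Usmg5 and the inhibitor gene Atpif1, 0 passed in KO by limma (3 at an unadjusted p under 0.05). The numbers higher and lower became 2 and 0 with GC correction, 0 and 1 with no scaling or without KO 1 or WT 2, 1 and 0 with a replicate block or without KO 3 or WT 3 and 1 and 1 without WT 4. Atpif1, the ATPase inhibitor, rose in Het (0.52, adjusted p = 0.0103).

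Of 24 genes of the tricarboxylic acid cycle and pyruvate dehydrogenase, 6 rose and 9 fell in KO and 8 rose and 7 fell in Het, with medians of -0.12 and -0.0021. The KO numbers became 4 and 14 with no scaling, and the Het numbers 9 and 4 with no low-value filter or without WT 3 and 8 and 4 with upper quartile scaling or without Het 1, Het 3 or Het 4. Pdk4, a kinase that switches pyruvate dehydrogenase off, rose in KO (2.10, adjusted p = 2.16e-07) and Het (0.76, adjusted p = 0.000312), and Pdhb, a subunit of the dehydrogenase itself, fell in both (-1.01, adjusted p = 2.99e-07 and -0.50, adjusted p = 4.14e-05). Pdk1 fell in KO (-0.72, adjusted p = 0.000277) and rose in Het (0.96, adjusted p = 2.47e-05). Of 15 electron carrier and coenzyme Q genes 3 rose and 4 fell in KO (median -0.13), with Coq9 lowest (-0.91, adjusted p = 7.13e-06); the numbers became 2 and 2 with no low-value filter or only the 2 groups in the fit or without KO 1, WT 1 or WT 3 and 3 and 2 without KO 3. Of 7 tested carriers and porins 3 fell and 1 rose in KO (median -0.24; 2 and 4 higher and lower without WT 4), the outer-membrane channel Vdac1 falling in KO (-0.80, adjusted p = 4.35e-07) and Het (-0.36, adjusted p = 0.000121) and Ucp2 rising in KO (0.92, adjusted p = 0.00152).

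Of 17 tested regulators of mitochondrial biogenesis, 6 rose and 1 fell in KO, and 6 rose and 0 fell in Het, with medians of 0.26 and 0.13. The Het numbers became 3 and 0 with only the 2 groups in the fit, 3 and 1 without Het 2 or WT 2 and 5 and 2 without WT 4, and the KO median was 0.16 without scaling. The coactivator gene Ppargc1a averaged 0.184 ± 0.0993 (SD, n = 4) FPKM in WT, 0.444 ± 0.0404 (SD, n = 4) in Het and 1.73 ± 0.241 (SD, n = 3) in KO. It passed the filter through the KO libraries alone and is counted among the 6 rises in each comparison, so no test is given for it. Its relative Pprc1 rose in KO and Het (0.44, adjusted p = 0.00565 and 0.40, adjusted p = 0.00718). Of 17 genes of the hypoxia response, 12 rose and 3 fell in KO and 7 rose and 3 fell in Het, with medians of 0.58 and 0.20. The KO numbers became 10 and 3 without scaling or with upper quartile scaling, and 13 and 3 with GC correction. Vegfa rose in KO (1.94, adjusted p = 8.22e-08) and Het (0.80, adjusted p = 4.97e-05). The counts include genes that passed the filter through certain groups only: Adm and Car9, at most 0.42 and 0.659 FPKM in WT, and Epas1, at 0.836 to 1.46 FPKM in WT, 0.178 to 0.308 in Het and 0.0759 to 0.145 in KO, which was not tested without WT 2, WT 3 or WT 4. In the same libraries the hypoxia-linked subunit genes Cox4i2 and Ndufa4l2 reached at most 0.681 and 0.444 FPKM. Any link between the hypoxia genes and the subunit genes was not tested.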

How the data were processed

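RNA from 11 libraries (4 WT, 4 Het, 3 KO) was aligned with TopHat2 2.1.0 to GRCm38.p4, and expression was estimated with Cufflinks 2.2.1, per the submitters' processing notes; Cuffdiff is named there without a version. The deposited tables hold FPKM per gene and the ends of its interval for 48892 loci, and no read counts. The FPKM of loci sharing a symbol were summed, which affected 2 members. Libraries were scaled by the median of ratios over 13981 genes, and genes with at least 1 FPKM in at least 3 libraries (14948) were fitted on log2(FPKM + 1) with limma 3.58.1 in R 4.3.3, with a mean per group, a mean-variance trend and a spread shared by all libraries. Fold changes on this scale understate those of low genes. P-values carry a Benjamini-Hochberg adjustment across every tested gene, threshold 0.05, and "rose" and "fell" mean past it. The members, lists and tests were chosen with earlier results of these data known. Any member could be named, except that 1 is counted in the totals and not reported here; from other lists up to 3 called genes of largest difference, or the 2 most abundant where none passed.

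FPKM carry no depth. It was estimated relative to WT 1 from steps between values under 0.3 FPKM. The Cufflinks interval of members of at least 5 FPKM had half-widths from 1.31% to 37.0% of the value, which cover estimation within a library only. Loci of 22 members overlap another locus, and how the authors divided reads among overlapping genes and pseudogene copies is not given in the sources used here. A simulated KO against WT had 50 changed genes per fold among 14948. The fit recovered 28% at 1.25-fold, 82% at 1.5-fold, 94% at 2-fold and 96% at 4-fold, with 10 false calls. The changed genes had at least 5 FPKM, and noise was drawn independently for each gene, without the GC gradient. In the real comparison 47.1% of genes were called, far more than were changed there, so these rates may not carry over. Transcript GC came from GENCODE M21 for 92.1% of tested genes and all 79 tested members. Alternatives were other pseudocounts, filters, scalings and variance models, a fit of 2 groups, a replicate block, GC correction and leaving out each library. Figures were drawn with matplotlib 3.10.9.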

Additional observations from a re-analysis of the deposited data

Results flagged for a closer look

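Within a group of 4 libraries, a library was marked where its gap to the nearest other exceeded Dixon's 95% limit. Of 168 groups examined 7 were marked (4.17%), beside the 5% that chance gives. Complex III summed to 1643 FPKM in WT 4, against 1315 to 1368 in the other WT libraries, and complex IV to 2791 in Het 4, against 2504 to 2542. Cox5b was 101 FPKM in WT 4 (others 74.0 to 78.4) and Ndufb11 was 103 in WT 4 (others 71.8 to 76.4). Ndufa3 was 148 FPKM in Het 1 (others 122.5 to 126.6). The low libraries were Het 2 for Ndufb6, at 59.4 FPKM (others 75.9 to 77.6), and Het 3 for Sdhd, at 128 FPKM (others 138 to 139.8). WT 4 is the deepest library and the one with the highest levels of GC-rich genes; its part in these values was not tested.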

How the results depend on the processing

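Of the calls of members, 20 of 25 in KO against WT, 21 of 30 in Het against WT and 17 of 27 in KO against Het held under every setting. Against the midpoint 24 of 38 held under every setting that applies, since a fit of 2 groups has no midpoint. The same shares over all genes are not given, so these numbers cannot be read as particular to the members. No call of a member reversed its direction. Some log2 ratios of complex sums near 0 changed sign, as the values below show. The KO against WT calls lost under at least 1 setting were Cox6c, Cyc1, Ndufb4, Ndufs1 and Uqcrh.

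Without scaling, KO against WT had 2 higher and 34 lower members and KO against Het 3 higher, and log2 ratios of KO to WT were -0.48 (complex II), 0.022 (IV) and -0.30 (V), and of KO to Het -0.41 (II), 0.14 (IV) and -0.22 (V). Of all genes, 2748 were higher and 4653 lower in KO against WT without scaling, and 2571 and 4479 in KO against Het. Upper quartile scaling gave -0.23 for complex V in KO to WT. With Ndufa4 in complex I, complex IV was 0.0088 (KO to WT) and 0.11 (KO to Het) and complex I 0.067 (KO to Het). The higher count in Het against WT was 13 with GC correction, 5 with no filter, and 3 with only the 2 groups fitted; that in KO against Het was 14 with GC correction. The cause of these shifts was not tested.

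Replicate numbers were not taken as pairs. Same-numbered libraries deviated together with correlations from -0.10 to 0.35 (median 0.09). For other-numbered libraries the range was -0.40 to 0.18 (median -0.02). WT 4 with KO 4 (0.35) and WT 1 with KO 1 (0.33) were highest. WT 4 with Het 4 (0.26) and Het 4 with KO 4 (0.25) also exceeded every other-numbered pair, and the remaining same-numbered pairs did not. What libraries of the same number share was not tested. The replicate block gave 14 higher in Het against WT.

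Leaving out each library in turn gave 3 to 7 members higher and 19 to 24 lower in KO against WT. In Het against WT the counts were 3 to 16 higher and 19 to 24 lower. In KO against Het they were 4 to 10 higher and 15 to 20 lower. For Het against the midpoint they were 11 to 22 higher and 15 to 21 lower. Counts over all genes moved as well. Without WT 4 they were 4004 higher and 3920 lower in KO against WT, and 3648 and 3662 in Het against WT. Log2 ratios of the complex sums ranged, in KO against WT, from -0.21 to -0.05 (I), -0.40 to -0.36 (II), -0.40 to -0.23 (III), 0.07 to 0.16 (IV), -0.21 to -0.18 (V); in Het against WT, from -0.12 to 0.01 (I), -0.10 to -0.06 (II), -0.47 to -0.32 (III), -0.16 to -0.08 (IV), -0.11 to -0.07 (V); in KO against Het, from -0.14 to -0.01 (I), -0.32 to -0.28 (II), -0.01 to 0.17 (III), 0.19 to 0.28 (IV), -0.13 to -0.09 (V). Depth in reads is unknown, so no detection limit is given for the isoforms near 0.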
